A study of Mus musculus with 9 samples.

Results

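Glucose enters cells through facilitative transporters, is trapped by hexokinase as a phosphate ester, is rearranged to fructose phosphate and is then committed to glycolysis by phosphofructokinase. Lactate made at the end of the pathway leaves, or enters, through proton-coupled monocarboxylate transporters. Most of these steps are served by several isoforms. The transporter GLUT3 (Slc2a3), hexokinase 1 (Hk1) and the platelet-type phosphofructokinase (Pfkp) are prominent in neurons and brain, whereas GLUT1 (Slc2a1), hexokinase 2 (Hk2) and the lactate exporter MCT4 (Slc16a3) are known for induction in low oxygen and in fast-growing cells.

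The members were 10 named genes, Slc2a1, Slc2a3, Hk1, Hk2, Gpi1, Pfkl, Pfkm, Pfkp, Slc16a1 and Slc16a3, taken as every probe set that the platform annotation assigns to exactly 1 of these symbols. This gave 17 of the 22626 probe sets tested and 9 of the 12393 genes named. No probe set carried the symbol of Gpi1, the isomerase between hexokinase and phosphofructokinase, on its own, and Gpi1 was not analysed here. Slc2a3 had 4 probe sets, Slc2a1 had 3, Hk1, Pfkl and Pfkp had 2 each, and Hk2, Pfkm, Slc16a1 and Slc16a3 had 1 each. All 17 lay above the 69th percentile of brightness.

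N1E-115 is a neuroblastoma line of the mouse, and its RNA was hybridised to 9 arrays in 3 groups, 3 of cells overexpressing mouse Tcof1, 3 of cells with Tcof1 knocked down and 3 of wildtype cells, with the letters A, B and C in each. Tcof1 encodes treacle, a nucleolar protein needed for the transcription of ribosomal RNA genes. The sources used here do not state how Tcof1 was raised or lowered, whether a group is 1 clone, or whether a letter is a culture of its own. Each p-value therefore rests on the spread between arrays alone, and that spread may be technical. In bulk RNA, fewer cells with a transcript and less transcript per cell cannot be told apart.

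Array medians lay between 164.1 and 186 intensity units, and log2 values correlated at 0.972 to 0.978 within groups. On its most changed probe set Tcof1 read 294 ± 80.9 in overexpressing, 127 ± 12.6 in knockdown and 149.7 ± 6.60 in wildtype arrays (mean ± SD, n = 3 each). Overexpression over wildtype passed on that probe set (log2 fold change 0.87 ± 0.21 SE, limma adjusted p = 0.0241). The change was smaller and did not pass on the brightest Tcof1 probe set (0.39, adjusted p = 0.187) or on the remaining one (0.63, adjusted p = 0.0786). Knockdown over wildtype did not pass on any of the 3 Tcof1 probe sets (adjusted p = 0.51 to 0.934). Its value was slightly positive on the brightest (0.06) and negative on the others (-0.22 and -0.40), so "knockdown" is used as the label of that group. Of 13 measured neuroblastoma and sympathetic neuron markers, 12 were brighter than the median probe set, the exception being Nefl.

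In cells overexpressing Tcof1, the neuronal glucose transporter gene Slc2a3, muscle-type phosphofructokinase gene Pfkm and monocarboxylate transporter gene Slc16a1 were called lower than in wildtype. By brightest probe set 6.22% of all genes were called lower, and no member was called higher. In cells labelled knockdown, Slc2a1, Hk2, Pfkl and Slc16a3 had values above all wildtype and all overexpressing arrays, as 3.12% of all probe sets did. Their brightest probe sets were 1.66-fold to 2.03-fold over wildtype. None passed the test across all probe sets with all 9 arrays. Among the wildtype arrays, array C lay nearest to the knockdown arrays in these 4 genes, so leaving it out necessarily widens their difference. Without it all 4 passed, where 0.455% of all probe sets did, against 0.0133% with all arrays. With any other array left out, no member passed in this comparison. Against knockdown cells directly, 6 of the 9 genes were called lower in overexpressing cells, where 5.25% of all genes were by brightest probe set. All 9 values were lower in overexpressing cells. The plot of intensities by array shows these patterns.

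**Figure D1:**
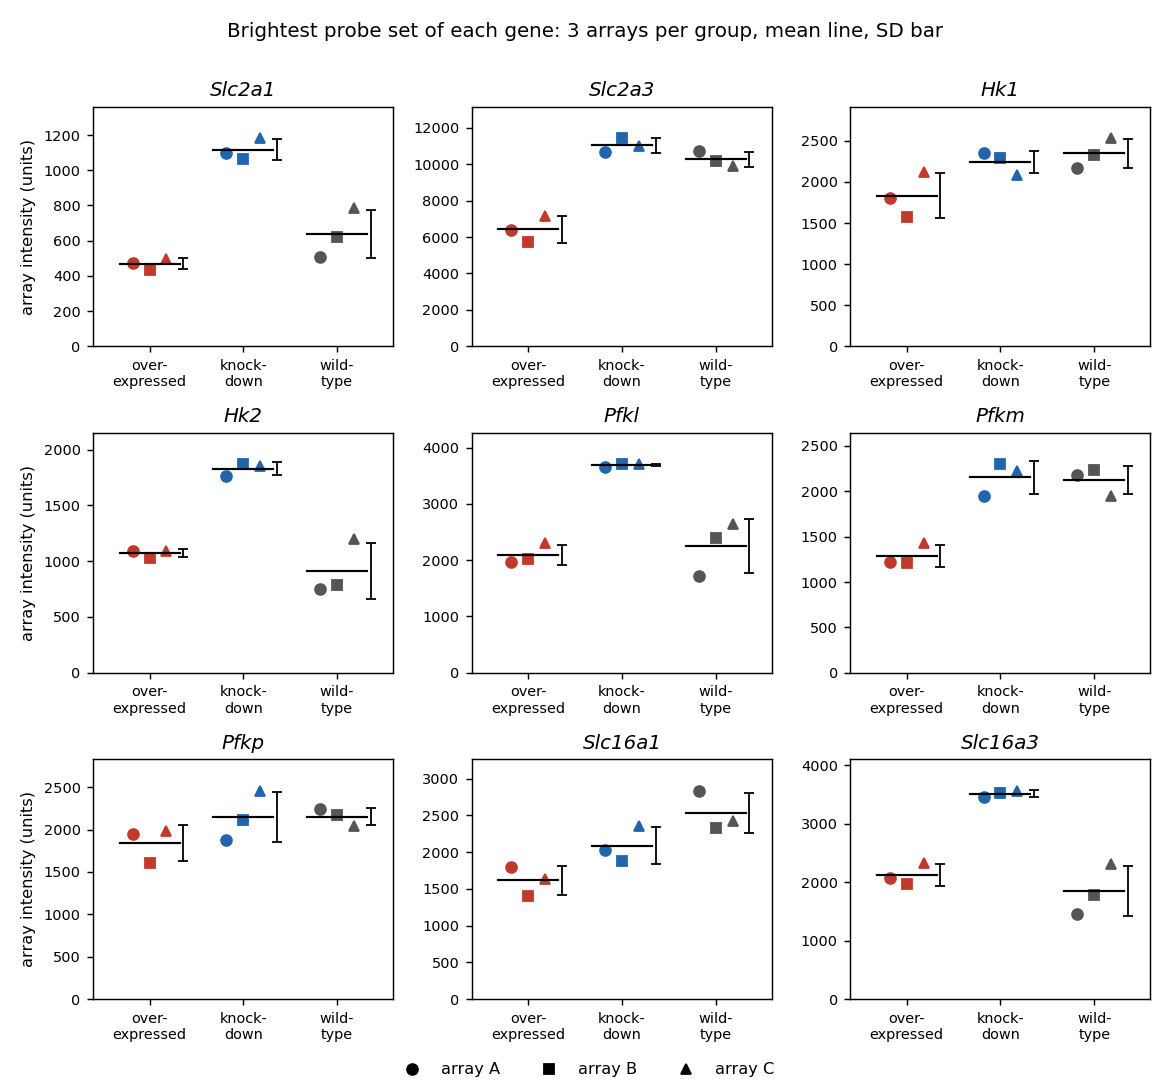
Array intensity (linear units, y axis from 0) of the brightest probe set of each of the 9 measured genes in overexpressing, knockdown and wildtype arrays; circles, squares and triangles are arrays A, B and C, the line is the mean and the bar the SD of 3 arrays. Knockdown arrays sit above all others for Slc2a1, Hk2, Pfkl and Slc16a3, and overexpressing arrays sit below all others for Slc2a1, Slc2a3, Pfkm and Slc16a1. Of all probe sets, 3.12% and 8.38% had these arrangements.

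Since several members had like patterns over the groups, the promoter windows of 5 of them are shown, the 4 whose knockdown arrays lay above all others and, for contrast, Slc16a1, which fell in overexpressing cells. Each window runs from 250 bases before to 50 after the annotated start in RefSeq, build GRCm38.p6, and is written in the direction of the gene. RefSeq windows were found for 9 of the 10 genes, all but Slc2a3. Capitals mark ACGTG or GCGTG on either strand, the core that hypoxia-inducible factors bind.
Slc2a1 (chr4:119108495-119108794, + strand): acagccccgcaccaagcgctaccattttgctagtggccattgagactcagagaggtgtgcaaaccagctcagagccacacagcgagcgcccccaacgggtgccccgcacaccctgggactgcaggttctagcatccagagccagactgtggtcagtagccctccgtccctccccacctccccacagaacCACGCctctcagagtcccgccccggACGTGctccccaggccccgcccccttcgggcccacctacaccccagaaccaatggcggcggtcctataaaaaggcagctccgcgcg
Hk2 (chr6:82774405-82774704, - strand): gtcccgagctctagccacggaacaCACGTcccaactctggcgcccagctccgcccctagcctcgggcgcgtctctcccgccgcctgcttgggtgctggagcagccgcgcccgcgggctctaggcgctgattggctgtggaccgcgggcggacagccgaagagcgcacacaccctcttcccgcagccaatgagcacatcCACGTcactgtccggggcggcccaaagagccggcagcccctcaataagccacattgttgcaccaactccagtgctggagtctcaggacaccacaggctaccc
Pfkl (chr10:78009758-78010057, - strand): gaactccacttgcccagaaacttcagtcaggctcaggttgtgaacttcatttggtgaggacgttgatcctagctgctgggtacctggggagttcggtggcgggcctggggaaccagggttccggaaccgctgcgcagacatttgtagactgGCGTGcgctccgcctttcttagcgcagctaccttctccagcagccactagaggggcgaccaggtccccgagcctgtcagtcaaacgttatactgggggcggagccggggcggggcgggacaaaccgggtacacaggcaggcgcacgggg
Slc16a3 (chr11:120948817-120949116, + strand): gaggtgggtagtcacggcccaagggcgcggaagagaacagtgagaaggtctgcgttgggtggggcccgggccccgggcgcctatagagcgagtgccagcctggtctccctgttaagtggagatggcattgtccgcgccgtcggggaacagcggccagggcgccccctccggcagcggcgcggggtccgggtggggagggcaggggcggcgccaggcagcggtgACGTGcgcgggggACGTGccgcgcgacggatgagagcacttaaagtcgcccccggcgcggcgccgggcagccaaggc
Slc16a1 (chr3:104638414-104638713, + strand): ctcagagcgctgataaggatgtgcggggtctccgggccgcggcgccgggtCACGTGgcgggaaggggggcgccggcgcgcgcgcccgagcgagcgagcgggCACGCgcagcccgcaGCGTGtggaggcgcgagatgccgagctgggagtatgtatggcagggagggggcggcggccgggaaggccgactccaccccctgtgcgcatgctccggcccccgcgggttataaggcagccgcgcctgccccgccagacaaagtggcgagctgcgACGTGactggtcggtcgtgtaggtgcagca

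The core was present 2 times each in the windows of Slc2a1, Hk2 and Slc16a3, 1 time in that of Pfkl and 5 times in that of Slc16a1. In Slc16a1 the stretch CACGTG counts 2 times, as it holds the core on both strands, so fewer stretches are marked. It was found in 10 of the 13 windows of the members, as Hk1 has 2 annotated starts and Pfkm 4. The windows of Gpi1, of 1 start of Hk1 and of 1 start of Pfkm held none. Such a short core is common: 43.8% of all 32851 windows held it, and 56.6% of the 12560 windows of genes on the array. The longer E-box CACGTG, which contains ACGTG, was in 2 member windows, 1 of Slc16a1 and 1 of Pfkm, against 7.15% of all windows and 9.11% of those of genes on the array. The windows shown were rich in G and C (62.3% to 73.7%, where the mean was 53.8% over all windows and 59% over those of genes on the array). A match of letters is a description of these windows and says nothing on binding.

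The glucose transporter genes differed from each other in which group stood apart. For Slc2a3, which encodes the high-affinity transporter of neurons, the brightest probe set (1437052_s_at) read 6402, 5702 and 7162.5 in overexpressing arrays A, B and C, 10649, 11431 and 10989.9 in knockdown arrays and 10724, 10181 and 9922 in wildtype arrays. Every overexpressing array lay below every other array, while knockdown and wildtype arrays overlapped. Against wildtype the log2 fold change was -0.68 ± 0.09 (limma adjusted p = 0.00184), and against knockdown cells -0.78 ± 0.09 (adjusted p = 0.00139).

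The other 3 Slc2a3 probe sets gave larger falls. The second brightest (1455898_x_at), read 3605 to 4845.5 in overexpressing, 8659 to 10141 in knockdown and 8372 to 9189 in wildtype arrays, or -1.04 ± 0.11 over wildtype (adjusted p = 0.000668). These 2 are drawn from the same sequence record and are of types that can match other transcripts. The dimmer 1421924_at and 1427770_a_at, which averaged 789 ± 102 and 585 ± 93.3 in overexpressing arrays against 2149 ± 169 and 1539 ± 108 in wildtype arrays, changed by -1.43 ± 0.17 and -1.38 ± 0.21 (adjusted p = 0.000824 and 0.00266). All 4 fell, by a fold between 1.60 and 2.70. In knockdown over wildtype the 4 values lay between -0.14 and 0.14 with 95% intervals from -0.60 to 0.40, and the dimmer pair were low in knockdown array B (1643 and 943) against knockdown arrays A and C (2079 and 2773, and 1563 and 1823).

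Slc2a1 encodes the widely expressed transporter that supplies basal glucose uptake. Its brightest probe set (1426600_at) read 475, 434 and 498 in overexpressing arrays, 1099, 1066 and 1183 in knockdown arrays and 510.2, 623 and 783 in wildtype arrays. The 3 groups did not overlap, with overexpressing arrays lowest and knockdown arrays highest, and this held for all 3 Slc2a1 probe sets, 2 of which share a sequence record. Of all probe sets 0.729% had that order without overlap, and among the members only the 3 of Slc2a1 did. Between overexpressing and knockdown cells the difference passed on all 3, at -1.22 ± 0.14, -1.66 ± 0.17 and -1.45 ± 0.19 on the log2 scale (adjusted p = 0.0011, 0.000623 and 0.00212).

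Neither side of wildtype passed for Slc2a1 on its own. Overexpressed over wildtype gave -0.41 ± 0.14, -0.60 ± 0.17 and -0.56 ± 0.19 (adjusted p = 0.101, 0.0559 and 0.092), and knockdown over wildtype gave 0.81 ± 0.14, 1.07 ± 0.17 and 0.89 ± 0.19 (adjusted p = 0.0948, 0.0701 and 0.139). The 95% intervals of the knockdown values, before any adjustment for the number of probe sets, ran from 0.47 to 1.45 over the 3 probe sets. The wildtype arrays were spread, with array C highest on all 3.

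The hexokinases trap glucose inside the cell. Hk2, the inducible isoform that binds mitochondria, read 1096, 1030.2 and 1090.1 in overexpressing arrays, 1761.5, 1868 and 1855 in knockdown arrays and 754, 786 and 1203 in wildtype arrays. Knockdown arrays were above all others, and overexpressing and wildtype arrays overlapped because wildtype array C was the highest of those 6. Knockdown over wildtype was 1.02 ± 0.15, a 2.03-fold difference that did not pass (adjusted p = 0.0701), and overexpressed over wildtype was 0.26 ± 0.15 (adjusted p = 0.361). Hk2 was lower in overexpressing than in knockdown cells by the test (-0.76 ± 0.15, adjusted p = 0.014).

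Hk1, the constitutive isoform of brain, did not pass in any comparison over all probe sets. Its brighter probe set (1437974_a_at) read 1806, 1572 and 2117 in overexpressing arrays, 2349, 2288 and 2089 in knockdown arrays and 2173, 2334 and 2534 in wildtype arrays. All overexpressing arrays lay below all wildtype arrays, but the change of -0.36 ± 0.11 did not pass (adjusted p = 0.0703), nor did -0.41 ± 0.15 on the second probe set (adjusted p = 0.128). Knockdown over wildtype was -0.06 ± 0.11, with a 95% interval from -0.31 to 0.18.

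Phosphofructokinase, the enzyme of the committed step, is a tetramer of liver-type (Pfkl), muscle-type (Pfkm) and platelet-type (Pfkp) subunits in proportions that depend on the tissue. Pfkm read 1217, 1214 and 1432 in overexpressing arrays, 1952, 2298 and 2219.8 in knockdown arrays and 2181, 2239.8 and 1944 in wildtype arrays, so that overexpressing arrays were lowest and the other groups overlapped. It fell by 0.72 ± 0.10 on the log2 scale against wildtype (adjusted p = 0.00212) and by 0.74 ± 0.10 against knockdown cells (adjusted p = 0.00255).

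Pfkl showed the other pattern. Its brighter probe set (1439148_a_at) read 1968, 2024 and 2301 in overexpressing arrays, 3660.3, 3701 and 3698 in knockdown arrays and 1715.5, 2399 and 2645 in wildtype arrays. The knockdown arrays were close together and above the rest. Knockdown over wildtype was 0.73 ± 0.14 and 0.72 ± 0.14 on the 2 Pfkl probe sets (adjusted p = 0.1 and 0.106), overexpressed over wildtype -0.08 ± 0.14 and -0.07 ± 0.14 (adjusted p = 0.816 and 0.846), and overexpressed over knockdown -0.81 ± 0.14 and -0.79 ± 0.14 (adjusted p = 0.00767 and 0.00947). For the overexpressed over wildtype difference the 95% interval of the brighter probe set was -0.39 to 0.23.

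Pfkp did not pass in any comparison over all probe sets. Its brighter probe set averaged 1845 ± 212 in overexpressing, 2149 ± 295 in knockdown and 2150.4 ± 99.4 in wildtype arrays, and overexpressed over wildtype was -0.22 ± 0.12 (adjusted p = 0.292). The dimmer one gave -0.58 ± 0.20 (adjusted p = 0.0965). Knockdown over wildtype was -0.01 ± 0.12 and -0.34 ± 0.20 on the same probe sets (adjusted p = 0.983 and 0.567).

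**Figure D2:**
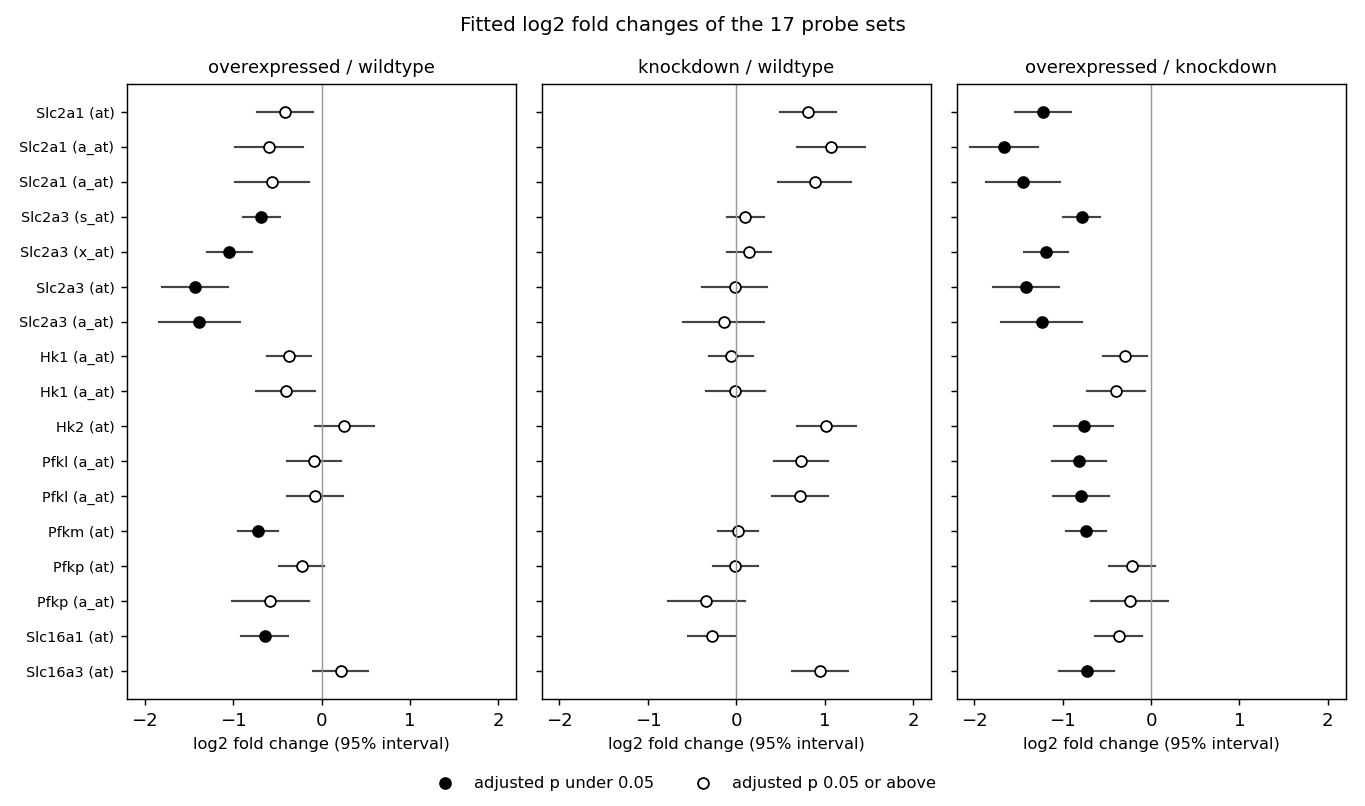
Log2 fold change (x axis) with its 95% interval for each of the 17 probe sets, labelled by gene and probe set type, with 1 panel per comparison; filled points passed at adjusted p under 0.05. There are 6, 0 and 12 filled points in the panels of overexpressed over wildtype, knockdown over wildtype, and the 2 altered groups against each other, and all 18 lie below 0. Of all probe sets, 9.59%, 0.0133% and 7.57% passed in the same order. Probe sets of 1 gene are not independent.

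Lactate carriers follow at the other end of the pathway. Slc16a1 encodes MCT1, which moves lactate and pyruvate in either direction, and read 1799, 1407 and 1640.5 in overexpressing arrays, 2028, 1875 and 2362 in knockdown arrays and 2839, 2334 and 2421.5 in wildtype arrays. Overexpressing arrays were below all others, and 1 knockdown array lay within the range of wildtype. It fell by 0.64 ± 0.12 on the log2 scale in overexpressing cells (adjusted p = 0.00838). Knockdown over wildtype was -0.28 ± 0.12 (adjusted p = 0.444) and overexpressed over knockdown -0.37 ± 0.12 (adjusted p = 0.0968), and neither passed.

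Slc16a3 encodes MCT4, the carrier of cells that export much lactate. It read 2067, 1972 and 2329 in overexpressing arrays, 3457, 3533 and 3569.5 in knockdown arrays and 1458, 1782 and 2313 in wildtype arrays. As for Hk2 and Pfkl, knockdown arrays were above all others, and overexpressing and wildtype arrays overlapped. Knockdown over wildtype was 0.95 ± 0.14, or 1.93-fold (adjusted p = 0.0701), overexpressed over wildtype 0.22 ± 0.14 (adjusted p = 0.427) and overexpressed over knockdown -0.73 ± 0.14 (adjusted p = 0.013).

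Over all 17 probe sets, 6 passed in overexpressed over wildtype, all lower, for 3 of the 9 genes. Of all 22626 probe sets, 9.59% passed in that comparison, 5.07% lower. The groups did not overlap, with overexpressing arrays lower, for 13 of the 17, against 14.4% of all probe sets, and 9 of them, those of Slc2a3, Slc2a1, Pfkm and Slc16a1, lay below the knockdown arrays too, against 8.38% of all. The median change of the 17 was -0.56, where that of all probe sets was -0.02. Probe sets of 1 gene share its transcript and are not independent. Taking each gene by its brightest probe set, 3 of 9 passed, all lower, where 6.22% of all genes did. With the test restricted to the brightest 60% of probe sets, 10 of 17 passed, all lower, where 19.9% of those tested did; the 4 added were 2 of Slc2a1 and 1 each of Hk1 and Pfkp (adjusted p = 0.0287 to 0.0499).

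In knockdown over wildtype, limma called 0 of the 17 probe sets, against 0.0133% of all probe sets, or 3. At an unadjusted p under 0.05 there were 8 of 17, against 10.9% of all. The knockdown arrays lay above the wildtype arrays without overlap for 7 of 17, where 8.63% of all did so, and below for 0 of 17, where 7.01% of all did. Those 7 belong to Slc2a1, Hk2, Pfkl and Slc16a3 and also lay above the overexpressing arrays, an arrangement seen in 3.12% of all probe sets. The median of the 17 was 0.10, against 0.03 for all probe sets, and the 10 probe sets of the other genes lay between -0.34 and 0.14. Both comparisons against wildtype use the same 3 wildtype arrays.

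Wildtype array C was the highest wildtype array in these 4 genes, though in Pfkl array A lay further from array B than array C did. Relative to the wildtype mean, the 4 brightest probe sets lay between -0.37 and -0.24 (log2) in wildtype array A, between -0.18 and 0.11 in array B and between 0.25 and 0.42 in array C, while knockdown arrays lay between 0.72 and 1.05. Leaving out wildtype array C, all 7 probe sets of Slc2a1, Hk2, Pfkl and Slc16a3 passed in knockdown over wildtype, where 0.455% of all probe sets did. As array C was the highest wildtype array in these genes, leaving it out necessarily raises their differences, so these calls add no separate support. Hk2 was then 1.23 above wildtype (adjusted p = 0.00227) and Slc16a3 1.12 (adjusted p = 0.00721), and Hk2 also passed in overexpressed over wildtype (0.47, adjusted p = 0.00911). Leaving out any other array, limma called 0 of 17 in knockdown over wildtype. With all arrays, 5 of 17 passed when the test took in the brightest 60% of probe sets, for these same 4 genes, where 0.339% of those tested passed.

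**Figure D3:**
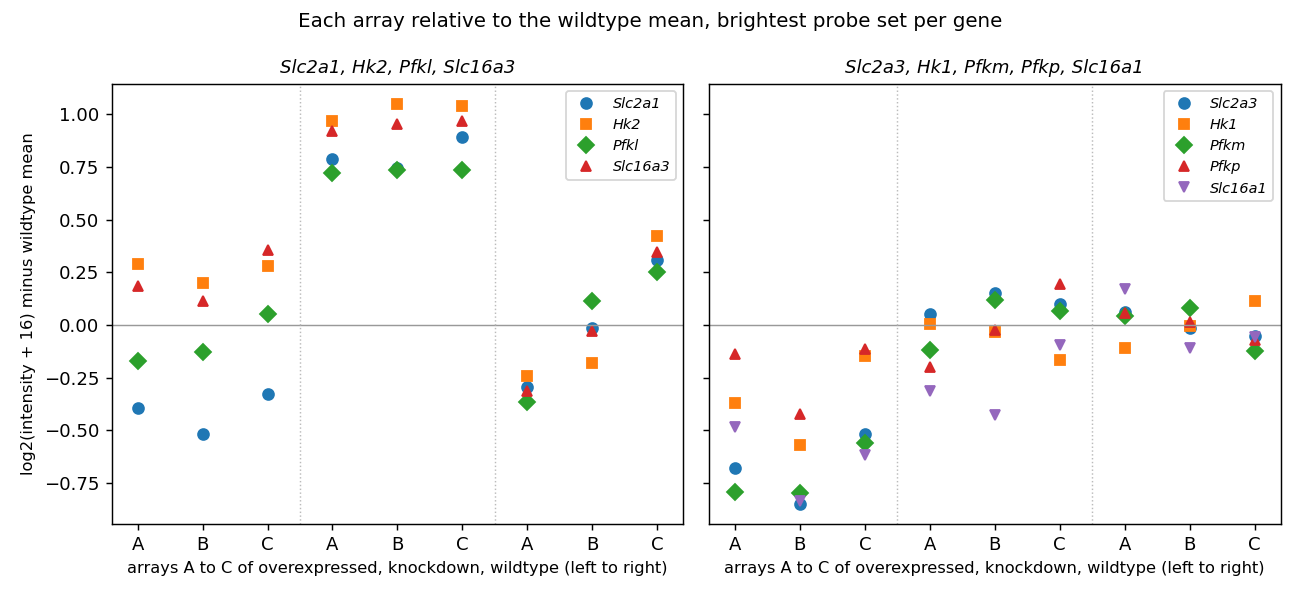
Log2(intensity + 16) of each array minus the wildtype mean (y axis) for the brightest probe set of each gene, with arrays A to C of overexpressing, knockdown and wildtype cells from left to right; the genes whose knockdown arrays stand above all others are on the left and the other 5 on the right. On the left, knockdown arrays lie between 0.72 and 1.05 and wildtype array C between 0.25 and 0.42.

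Between overexpressing and knockdown cells, 12 of 17 probe sets passed, all lower in overexpressing cells, against 7.57% of all probe sets, 4.14% lower. They belong to Slc2a1, Slc2a3, Hk2, Pfkl, Pfkm and Slc16a3, and Hk1, Pfkp and Slc16a1 did not pass. Overexpressing arrays lay below knockdown arrays without overlap for 13 of 17, where 15.2% of all did so. By brightest probe set 6 of 9 genes passed lower, where 5.25% of all genes did. All 17 values were below 0, with a median of -0.78, where that of all probe sets was -0.05. Of all calls in this comparison 45.3% were higher in overexpressing cells, or 57.5% with arrays scaled to a common median, under which 12 probe sets of the same 6 genes were called lower. This comparison uses no wildtype array, although these arrays add to the common estimate of spread.

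Other genes of the pathway were read by their brightest probe set, in lists drawn up with earlier results of these data known. Of all genes read this way, 6.22% were called lower in overexpressed over wildtype and 5.25% in overexpressed over knockdown. Of 8 measured other sugar transporters, 0 passed in any of the 3 comparisons in limma, with 1 at an unadjusted p under 0.05 in overexpressed over wildtype and 0 in the others. The brightest was Slc2a8, which encodes a transporter of inner membranes, at 309 ± 91.1 in overexpressing, 374 ± 54.2 in knockdown and 448 ± 70.2 in wildtype arrays. Of 7 other monocarboxylate carriers and chaperones, 1 fell in overexpressing cells, Bsg, which encodes basigin, the chaperone that takes MCT1 and MCT4 to the cell surface. Bsg averaged 8594 ± 518 in overexpressing, 13489 ± 1042 in knockdown and 12372 ± 152 in wildtype arrays, at -0.53 ± 0.09 over wildtype (adjusted p = 0.0046) and -0.65 ± 0.09 over knockdown (adjusted p = 0.00248). Emb, which encodes the related chaperone embigin, was at 0.08 over wildtype (adjusted p = 0.787).

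Of 8 other upper glycolysis and opposing enzymes, 2 were lower in overexpressing cells, both against wildtype (6.22% of all genes) and against knockdown (5.25%), and both were dim. Hkdc1, a hexokinase-like gene, averaged 73.2 ± 24.6 in overexpressing, 167 ± 32.3 in knockdown and 158 ± 16.5 in wildtype arrays, and Fbp2, a fructose bisphosphatase gene of muscle, 70.9 ± 31.1, 189 ± 23.9 and 189.8 ± 33.2 in the same groups. Their log2 fold changes over wildtype were -1.0 ± 0.26 (adjusted p = 0.033) and -1.31 ± 0.29 (adjusted p = 0.0185). One gene chosen after its values were seen ran the other way: Pfkfb3, whose product makes the allosteric activator of phosphofructokinase, averaged 307 ± 100.4 in overexpressing, 135 ± 6.02 in knockdown and 231 ± 87.0 in wildtype arrays, and just missed the threshold in overexpressed over knockdown (1.04, adjusted p = 0.0502).

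Of 9 branch enzymes, 1 fell in overexpressing cells against wildtype and 2 were lower than in knockdown cells, where 6.22% and 5.25% of all genes were. Pgm1, a phosphoglucomutase gene that links glycolysis to glycogen, averaged 563 ± 14.2 in overexpressing, 1296 ± 233 in knockdown and 874 ± 165 in wildtype arrays (-0.60 ± 0.15 over wildtype, adjusted p = 0.0341, and -1.16 ± 0.15 over knockdown, adjusted p = 0.00231). Gys1, the glycogen synthase gene of muscle and other tissues, was lower in overexpressing than in knockdown cells (-0.97 ± 0.23, adjusted p = 0.0311). The median of the 9 in overexpressed over wildtype was -0.01.

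Of 12 measured genes of lower glycolysis and lactate, 3 fell against wildtype and 5 were lower than in knockdown cells, where 6.22% and 5.25% of all genes were, with medians of -0.16 and -0.40, where all genes had medians of -0.03 and -0.08. Aldoc, Eno2 and Aldoa, which encode brain aldolase, neuronal enolase and the general aldolase, passed in both, at -2.48 ± 0.15, -1.84 ± 0.15 and -0.66 ± 0.10 over wildtype (adjusted p = 3.4e-05, 0.000206 and 0.00228). Tpi1, which encodes triose phosphate isomerase, was lower than in knockdown cells (-0.84 ± 0.12, adjusted p = 0.00255) and at -0.32 over wildtype (adjusted p = 0.119), and the fifth gene lower than in knockdown cells was Pgam1, a phosphoglycerate mutase gene, which was picked out after its values were seen. The dimmer of 2 Aldoc probe sets had a positive sign in both. In knockdown over wildtype limma called 0 genes of each of these lists, where 1 of all 12393 genes was called. At an unadjusted p under 0.05 there were 0 to 5 genes per list, where 1464 of all 12393 genes were. The 5 were among the 12 of lower glycolysis. The medians of these lists lay between 0.04 and 0.21, where that of all genes was 0.04.

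**Figure D4:**
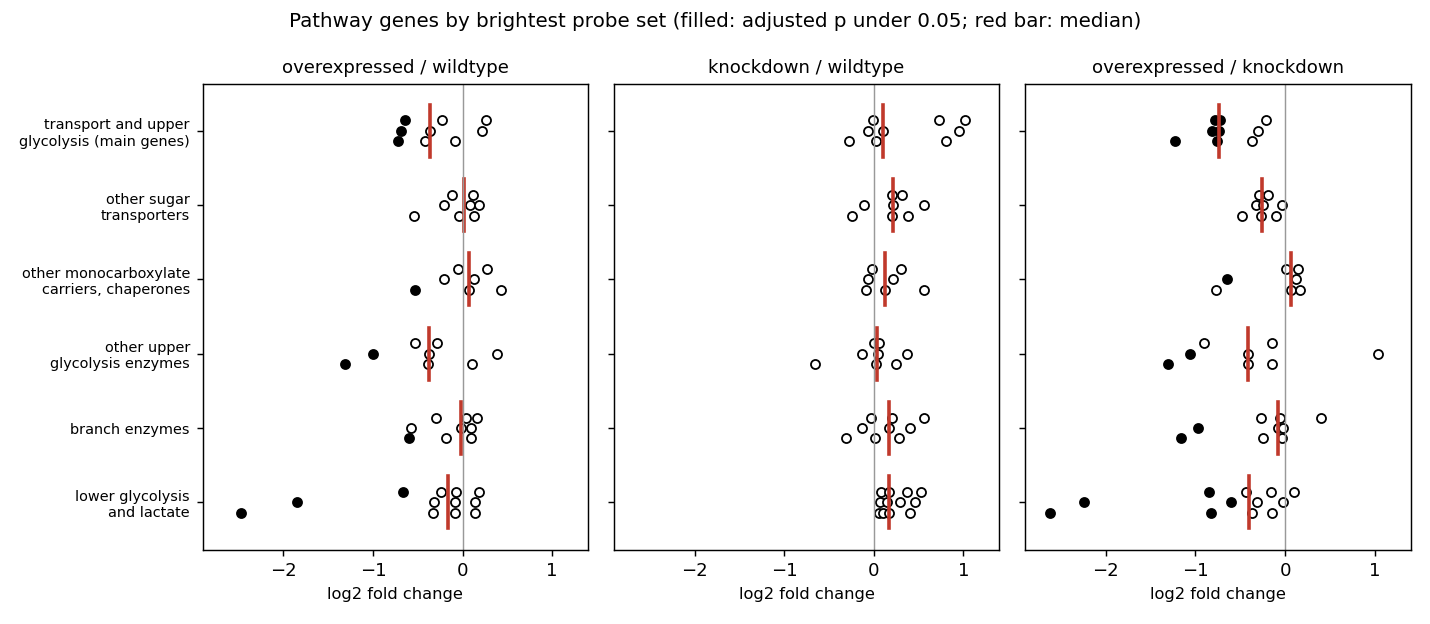
Log2 fold change (x axis, the same range in each panel) of each measured gene by its brightest probe set, in 6 lists (y axis), with 1 panel per comparison; filled points passed at adjusted p under 0.05 and red bars are list medians. All filled points lie below 0, and the panel of knockdown over wildtype has none.

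The genes whose profile over the 9 arrays was most like that of 4 members were sought among 6966 other genes brighter than the median, by Pearson's r of log2 values. The arrays fall in 3 groups, so r takes in differences between groups as well as within them. Genes picked by r over these arrays tend to share the member's group differences, so those differences are no separate support. For Slc2a3 they were Gsn, Copz2 and Tusc3 (r = 0.988, 0.987 and 0.985). In overexpressed over wildtype they were at -0.81, -0.97 and -0.46 on the log2 scale (limma adjusted p = 0.00284, 0.00875 and 0.00669). For Slc2a1 they were Uqcr11, Fam181b and Rgs4 (r = 0.985, 0.985 and 0.973), of which all 3 were lower in overexpressing than in knockdown cells by the test.

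For Hk2 the nearest were Ndufa1, S100a10 and Fkbp4 (r = 0.970, 0.956 and 0.947), and for Slc16a3 S100a10, Acat1 and Ndufa1 (r = 0.965, 0.957 and 0.954). Ndufa1 and S100a10, near to both, were at 0.24 and 0.27 in knockdown over wildtype (adjusted p = 0.303 and 0.278), where Hk2 and Slc16a3 were at 1.02 and 0.95. Between members, r was 0.985 for Hk2 with Slc16a3 and 0.979 for Slc2a3 with Pfkm, and 0.227 for Hk2 with Pfkm.

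Markers of other cell types were mostly dim. The summed intensity of 6 blood and immune markers was 649.7 to 751 in overexpressing, 1117 to 1141 in knockdown and 1271 to 1307 in wildtype arrays. Much of that sum was Cd74, the brightest, at 373 ± 24.6, 792 ± 104 and 928 ± 60.9 in the same order. Of the 6, 1 was called lower and 0 higher in overexpressed over wildtype, where 6.22% of all genes were called lower. Hba-a1 alone had a positive value (1.19, limma adjusted p = 0.064). Ptprc, which defines white blood cells, averaged 17.6, 16.9 and 22.7 in these groups, near the 16 units added before the log. Cd74 fell in overexpressing cells (-1.28 ± 0.12 over wildtype, adjusted p = 0.00031), as did the endothelial marker Pecam1. Pecam1 averaged 42.2 ± 22.7 in overexpressing, 140.7 ± 14.4 in knockdown and 99.5 ± 11.2 in wildtype arrays (adjusted p = 0.0412 over wildtype). It was the only 1 of the 5 endothelial markers called in overexpressed over wildtype. Cdh5 and Kdr had positive values there (0.51 and 0.20), and Tek and Tie1 slightly negative ones (-0.12 and -0.05). The 7 fibroblast markers summed to 385.5 to 540 in overexpressing, 530 to 650.0 in knockdown and 385 to 530 in wildtype arrays. The 5 endothelial markers summed to 283.5 to 461, 396.5 to 517 and 335 to 443, and the 4 Schwann cell and glia markers to 348 to 484.5, 423 to 564 and 452 to 538, in the same order. The 13 neuroblastoma markers summed to 44996.5 to 49062.5 in overexpressing, 53153 to 56603 in knockdown and 51489 to 55386 in wildtype arrays. In overexpressed over wildtype 2 of these 13 were called higher and 3 lower. The part of these differences in the values of the members was not tested.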

How the data were processed

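The authors deposited linear intensity values, 1 per probe set and array, in 1 table of 9 arrays of a 1-colour platform with probe names of the Affymetrix kind. The sources used here do not say how they were computed from the scans. Trimmed by 2% at either end, every array had the same mean, so the intensities had been scaled, and they were used as deposited. There were no detection calls. Precision is limited by having 3 arrays a group.

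Of 22690 probe sets, 64 controls were left out. Names came from the platform annotation where it gives exactly 1 symbol (20380 probe sets), of which 20351 matched RefSeq for GRCm38.p6 and 0 needed updating. Values were turned into log2(intensity + 16), so changes of dim features are understated. A linear model (limma 3.58.1, R 4.3.3) was fitted to all 9 arrays with a mean per group and a mean-variance trend, and p-values were adjusted by Benjamini-Hochberg over 22626 probe sets per comparison, with calls at adjusted p under 0.05. Fold changes are given ± SE, intensities as mean ± SD over 3 arrays, and 95% intervals come from the same fit, unadjusted. The fit was tested on simulated data.

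All single-symbol probe sets of the members were named, with up to 4 called genes of the smallest p per pathway list and comparison, and the 3 genes most like Slc2a1, Slc2a3, Hk2 and Slc16a3. The members and lists were chosen with earlier results of these data known. Letters were not taken to pair arrays across groups, since the sources do not state that a letter is a shared culture or day. Deviations of same-letter arrays from their group means correlated at -0.01 to 0.10, against -0.12 to 0.10 for other letters. Of the 9 arrays, 7 correlated best with an array of their own letter, so the letter was also fitted as a block. Alternatives were other pseudocounts, a brightness filter, quantile normalization, a common array median, no trend, array weights, the letter as a block, each array left out, no probe sets that can match several transcripts, a 1.5-fold limit and the mean of all probe sets of a gene.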

Additional observations from a re-analysis of the deposited data

How the results depend on the processing

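All members called in overexpressed over wildtype and in overexpressed over knockdown were lower under the 17 refits, except Hk2, which was called higher over wildtype without wildtype array C. The calls in knockdown over wildtype depended on the setting. Member probe sets called in overexpressed over wildtype numbered 6, where 9.59% of all probe sets were called. In a test of the brightest 60% of probe sets they numbered 10, where 19.9% of those tested were called. They numbered 7 with array weights (12.5% of all probe sets) and 6 to 8 with 1 array left out (4.82% to 10.6% of all). Without probe sets that can match several transcripts they numbered 4, and the share of all probe sets under that setting is not given here. Member probe sets called in knockdown over wildtype numbered 0, 5 among the brightest 60% and 3 with array weights (Slc2a1, Hk2 and Slc16a3). The shares of all probe sets tested were 0.0133%, 0.339% and 0.106% in that order. With 1 array left out the member probe sets called there numbered 0 to 7, the 7 without wildtype array C (0.455% of all probe sets). In overexpressed over knockdown, member probe sets called numbered 12 (7.57% of all probe sets), and 10 without a mean-variance trend (3.69% of all), which lost Hk2 and Slc16a3. With 1 array left out they numbered 11 to 13, where 3.11% to 9.05% of all were called.

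Over all probe sets, overexpressed over wildtype gave 2169 calls, 1339 without a trend and 1090 (without wildtype array B) to 2404 with 1 array left out. Knockdown over wildtype gave 3, and 46 among the brightest 60%, 24 with array weights, 1 with quantile normalization, 1 without a trend, and 0 to 103 with 1 array left out. Overexpressed over knockdown gave 1713, 834 without a trend and 704 (without overexpressing array A) to 2048 with 1 array left out. With the letter as a replicate block the counts of member probe sets were 6, 0 and 12 as before, and the counts over all probe sets 2128, 0 and 1600. The block changed no call of a member.

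Signs turned only for values near 0. In overexpressed over wildtype Pfkl ran from -0.27 to 0.045 and from -0.27 to 0.078 on its 2 probe sets with 1 array left out. In knockdown over wildtype, over the same settings, Slc2a3 ran from -0.21 to 0.16 (1421924_at) and from -0.34 to 0.13 (1427770_a_at), Hk1 from -0.079 to 0.11 (1420901_a_at), Pfkm from -0.039 to 0.092 and Pfkp from -0.11 to 0.085 (1416069_at). With array weights Slc2a3 (1421924_at) was at 0.010 and Pfkm at -0.018, with quantile normalization Hk1 was at 0.013, and with a common array median Pfkm was at -0.012. By the mean of all probe sets of a gene, 3 of 9 member genes were called in knockdown over wildtype, where the brightest probe sets gave 0. In overexpressed over wildtype 2 of 7 carriers and chaperones and 5 of 12 lower glycolysis genes were called, where the brightest probe sets gave 1 and 3. The share of all genes called by that mean is not given here, so these counts cannot be read against it. The causes of these shifts were not tested. No detection calls were given, so how far dim probe sets lie above background is unknown.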
